A study of Mus musculus with 2 samples.

Results

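The Mirg cluster is a run of microRNA (miRNA) hairpins on the plus strand of mouse chromosome 12, from Mir379 to Mir410, at the distal end of the imprinted Dlk1-Dio3 region. Its members were taken by position alone: all miRNA genes of the GENCODE M21 annotation in that stretch, 39 of the 2202 miRNA genes in the count tables. In mm10 they run from 109709060 (start of Mir379) to 109747960 (end of Mir3072), a span of 38.9 kb. The window also took in Mir3072, downstream of Mir410, and Gm27379, an annotated miRNA gene without a miRNA name. The M21 gene Mirg, from 109729764 to 109749460, holds 14 of the 39, of which 9 overlap an exon and 5 lie in an intron. Overlap with an exon of any transcript was enough, and Mir377 and Mir3072 had it in 1 transcript only. The other 25 lie upstream of Mirg and in no annotated host on their strand. The name Mirg cluster thus goes further than the annotated gene.

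Small RNA under 30 nt was sequenced from the hippocampus of female mice labelled strain 5xFAD/CAST, aged 8 to 10 months, as 1 group of 2 biological replicates. 5xFAD mice carry transgenes for familial Alzheimer's disease driven by the neuronal Thy1 promoter, and CAST is a strain derived from wild Mus musculus castaneus. No second genotype, age or tissue was given, and the labels do not say which strain was the mother, although miRNAs of this region are read from the maternal chromosome. Both replicates carry the same donor entry, so it is not known that they came from separate animals, and the spread between them may be technical. The libraries held 9962659 and 12761689 reads, of which 3135960 and 4377622 were assigned to miRNA genes on their own strand. Levels are given as CPM, the counts of a gene per 1000000 of these assigned counts. They are given for replicate 1 and replicate 2 in that order, or as mean ± SD (n = 2). Whether unlike mature sequences enter a library equally well was not tested, so levels of different genes compare counts. Where a gene had no count, its level could still be as high as 0.957 CPM in replicate 1 and 0.685 CPM in replicate 2. This limit and all intervals cover counting error only and leave out the spread between replicates. PCR copies of a molecule are counted as separate reads, so even the counting error may be understated. Reads that mapped to several places were 36.3% and 41.7% of the total. Of the marker genes, neuronal Mir132 was at 17397 ± 6067 CPM, neuronal Mir128-1 at 6807 ± 3199, oligodendrocyte Mir219a-2 at 3540 ± 343, endothelial Mir126a at 17498 ± 7038 and erythroid Mir451a at 37.6 ± 8.21 CPM. Neuronal Mir124a was at 1.23 CPM or less in each of its 3 gene copies, and reads mapping to several places were not among those counted.

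A miRNA hairpin is cut by Drosha and Dicer to a duplex, of which either arm (5p or 3p) can be loaded onto Argonaute. Bases 2 to 8 of the loaded strand, the seed, pair with target messenger RNAs. The hairpins of this cluster are made from long maternal transcripts and are found mainly in the brain, where neuronal activity induces them through the transcription factor Mef2. Deletion of the cluster in mice disturbs the metabolic change at birth and alters anxiety and social behaviour in adults.

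The 10 members with the highest mean levels are shown here by their mature sequences because these hairpins hold most of the cluster's counts. The sequences are from RefSeq (GRCm38.p6), 5′ to 3′, with the seed in capitals. Of the 39 members 38 matched that table, with 71 mature sequences of 19 to 25 nt. The arms miR-487b-3p, miR-485-5p, miR-376c-3p and miR-539-3p were not used here. The counts are per hairpin and do not tell the arms apart, so a printed arm is not shown to be the one counted.
miR-487b-5p: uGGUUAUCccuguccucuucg
miR-382-5p: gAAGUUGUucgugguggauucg
miR-382-3p: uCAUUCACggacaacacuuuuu
miR-411-5p: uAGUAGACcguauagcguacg
miR-411-3p: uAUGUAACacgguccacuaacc
miR-379-5p: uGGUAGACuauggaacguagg
miR-379-3p: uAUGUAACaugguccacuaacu
miR-541-5p: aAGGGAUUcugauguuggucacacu
miR-541-3p: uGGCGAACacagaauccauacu
miR-485-3p: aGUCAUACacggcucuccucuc
miR-369-5p: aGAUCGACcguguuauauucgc
miR-369-3p: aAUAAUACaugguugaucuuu
miR-154-5p: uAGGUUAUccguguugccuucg
miR-154-3p: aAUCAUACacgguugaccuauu
miR-376a-5p: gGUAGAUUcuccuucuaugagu
miR-376a-3p: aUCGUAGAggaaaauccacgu
miR-409-5p: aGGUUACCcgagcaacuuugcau
miR-409-3p: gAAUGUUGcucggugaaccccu

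Among the 71 mature sequences there were 65 different seeds, and 6 seeds were shared by 2 members each. AUGUAAC was shared by the 3p arms of Mir379 and Mir411, next to each other at the upstream end. GGUAGAC was the seed of miR-379-5p and miR-1193-5p. GGUUGAC was shared by miR-758-5p and miR-1197-5p, GGUUGUC by miR-494-5p and miR-410-5p, and GGUUGCC by miR-453 and miR-496a-5p. UGGAUAU was shared by the 5p arms of Mir376b and Mir376c. Outside the cluster, 11 of the 71 had their seed in another mature sequence of the table, among them miR-329-3p, whose seed ACACACC is also that of miR-362-3p. Each of the 71 was found whole in exactly 1 annotated miRNA hairpin on the hairpin's strand. Uniqueness in the genome was not examined.

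Longer stretches were shared by several pairs, printed with the common stretch in capitals to show how alike some hairpins are.
miR-376c-5p: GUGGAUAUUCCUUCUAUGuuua
miR-376b-5p: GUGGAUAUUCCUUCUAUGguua
miR-300-3p: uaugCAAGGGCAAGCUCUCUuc
miR-381-3p: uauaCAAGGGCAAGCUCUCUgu
miR-758-5p: UGGUUGACCAGAGagcacacg
miR-134-5p: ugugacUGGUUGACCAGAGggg
The common stretch was 18 nt in the Mir376 pair, 16 nt in Mir300 and Mir381, and 13 nt in Mir758 and Mir134. Among all stretches of 6 bases, searched on the mature strand only, GUUGCC occurred in the most members, in 7 of 38 (9.86% of their 71 mature sequences). It was in 4 of the 1608 other mature sequences of the table, or 0.249%. GGUUGA, which overlaps the shared seed GGUUGAC, was in 6 members (8.45% of their mature sequences, against 0.0622% of the others). AGGUUG was also in 6 (8.45% against 1.06%). Several stretches were in 5 members, among them ACACGG (7.04% against 0.124%) and ACAUGG (7.04% against 1.18%). These stretches were picked because they were common in the members, so the percentages describe the cluster and test nothing.

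Most of the cluster was measurable in this hippocampus. At least 10 counts in each library, called detected here, were reached by 34 of the 39 members (87.2%), where 17.4% of all 2202 miRNA genes reached it. Together the 39 held 121749 and 163187 counts, which were 3.88% and 3.73% of all assigned counts, with Clopper-Pearson 95% intervals of 3.86% to 3.90% and 3.71% to 3.75%. The mean share was 3.81% ± 0.109 (SD, n = 2). The median over all 39 members was 176 CPM, and over all 2202 genes it was 0. In whole tissue, fewer cells that make a miRNA and less of it per cell cannot be told apart.

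No member was among the 20 most abundant miRNA genes, which are 0.908% of all. The 50 most abundant (2.27% of all genes) held 5 members, the 100 most abundant (4.54%) held 10 and the 200 most abundant (9.08%) held 25. By mean level, 8 members lay between 1000 and 10000 CPM, 17 between 100 and 1000, 7 between 10 and 100 and 4 below 10 but above 0. The remaining 3, Mir654, Mir453 and Gm27379, had 0 counts in both libraries. From the lowest detected member, Mir758, to the highest, Mir487b, the level rose 1956-fold. Mir758 had 11 counts in each library, so the minimum of 10 sets the low end of this range.

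**Figure D1:**
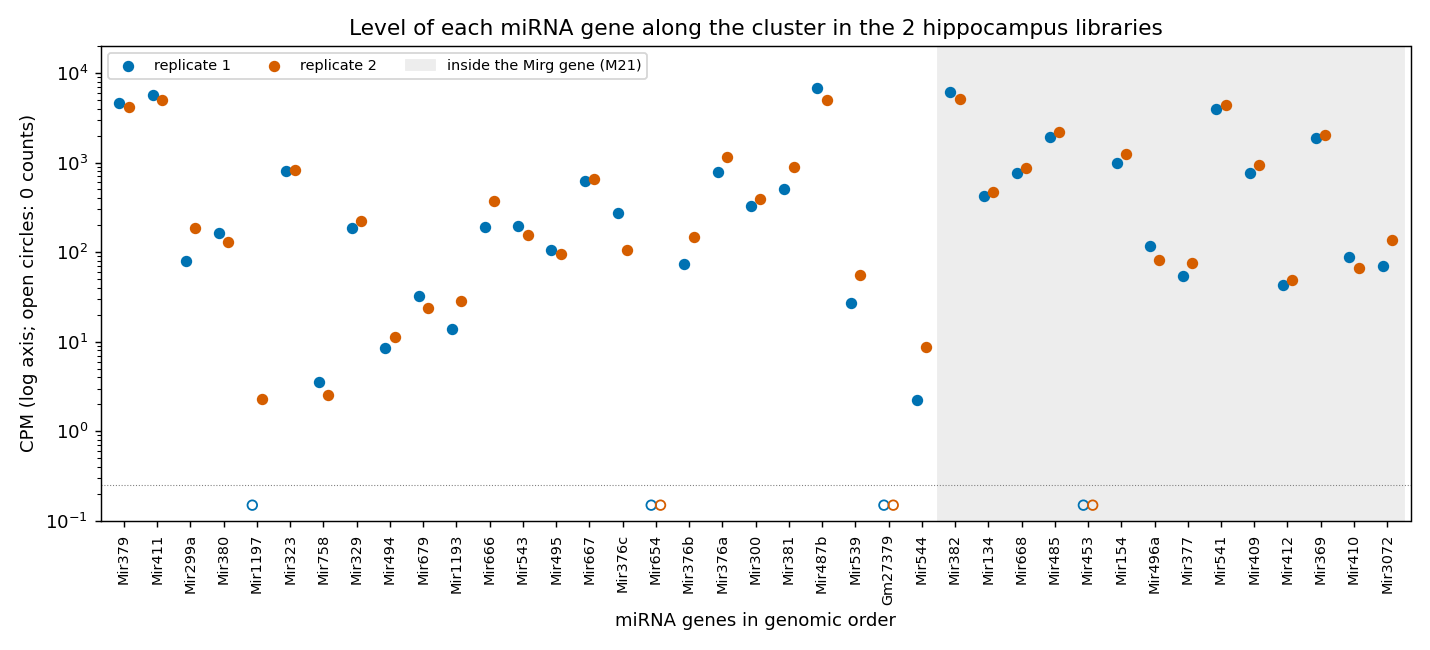
Level of each of the 39 miRNA genes in CPM on a log axis, in genomic order, with 1 point for each of the 2 libraries. Open circles mark 0 counts and shading the 14 genes inside Mirg. High and low genes stood side by side along the whole run, and both libraries followed the same profile.

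A few hairpins supplied most of the reads. Mir487b led with 6767 and 5007 CPM (5887 ± 1244), which placed it 32nd of all miRNA genes, and it lies at 109727333 to 109727414, upstream of Mirg. Mir382 was at 6153 and 5118 CPM (5635 ± 731), in an exon of Mirg at 109733771 to 109733846. Mir411 was at 5718 and 4924 CPM (5321 ± 562). Their means lay within 1 SD of Mir487b of each other, and Mir487b led in replicate 1 while Mir382 led in replicate 2.

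Mir379, the first hairpin of the run at 109709060 to 109709125, was at 4638 and 4213 CPM (4425 ± 300). Mir541, which targets the synaptic vesicle gene synapsin I, was at 4003 and 4379 CPM (4191 ± 266) in an intron of Mirg at 109742409 to 109742498. Mir379 and Mir541 swapped order between the libraries. Mir485, a regulator of the presynaptic vesicle protein Sv2a, followed at 1934 and 2215 CPM (2075 ± 199), below the leading 5 in both libraries. Mir369 was at 1879 and 2038 CPM and Mir154 at 996 and 1231 CPM. Mir376a was at 783 and 1151 CPM and Mir409 at 755 and 936 CPM.

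The 5 leading members held 66.8% ± 4.84 of the cluster's counts (SD, n = 2), and the 10 leading held 85.2% ± 2.13. The same 6 members led in both libraries, and 9 members were among the leading 10 of each. Among the 34 detected members in order of level, 25 of 33 neighbouring ranks differed in mean CPM by no more than the larger SD of the pair. CPM were not divided by hairpin length (61 to 123 bp), as each read is a mature strand. On CPM per base, 9 of the 10 leading members stayed among the leading 10, with Mir668 in place of Mir409.

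The list of members tied to dendrites and synapses had 7 of 7 detected, with a median of 704 CPM and 32.0% ± 2.20 of the cluster's counts. Of all 39 members 87.2% were detected, at a median of 243 CPM. The list was chosen with earlier results of these data known, so these values test nothing. Mir379, Mir541 and Mir485 led it. Mir134, which represses the kinase Limk1 in dendrites and limits the size of spines, was at 426 and 469 CPM (447 ± 30.6), 15th in the cluster in both libraries. Mir381 was at 509 and 900 CPM, and its level thus differed between the libraries more than that of Mir134. Mir329 was at 186 and 221 CPM. Mir495, one of whose targets is the growth factor gene Bdnf, was the lowest of the list at 107 and 94.1 CPM.

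The list of hairpins known to be edited from adenosine to inosine in brain had 6 of 6 detected, against 87.2% of all members. It held 30.8% ± 0.142 of the cluster's counts. This list too was chosen with earlier results of these data known. Mir411 and Mir379 made up most of it. Its Mir376 members lie within 1131 bp and are close copies, and an edited base in their seed is known to redirect them to other targets. Mir376a was at 783 and 1151 CPM, Mir376b at 73.7 and 146 CPM and Mir376c at 270 and 106 CPM. Mir376a was thus the highest of the 3 in both libraries, while Mir376b and Mir376c swapped order. How many reads of these copies were left out for mapping to several places was not tested. Edited bases cannot be seen in counts per gene, and whether reads with them were counted was not tested.

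At the low end of the cluster, several members had fewer than 50 counts in each library. Mir758 had 11 counts in each library (3.51 and 2.51 CPM), and Mir494 had 27 and 49 counts (8.61 and 11.2 CPM). Mir544 had 7 and 38 counts, and Mir1197 had 0 and 10. Mir679 and Mir1193, only 20 bp apart, were at 28.1 ± 6.20 and 21.4 ± 10.4 CPM. The other detected members, not named so far, lay between 41.4 CPM for Mir539 and 820 CPM for Mir668.

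Hairpins next to each other on the chromosome could differ widely in counted level, although they are thought to be cut from shared transcripts. Of 29 neighbouring pairs with both members detected, 11 were over 10-fold apart in the same direction in both libraries. Pairs that are not neighbours were not counted in this way, so the count does not set neighbours apart from other pairs. Across the 34 detected members the log2 level had a Pearson correlation of 0.17 (Spearman 0.09) with position. The level of the next detected hairpin gave 0.06 (Spearman 0.02, 33 pairs). These values describe hairpins of the same 2 libraries, which are not independent.

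By the smaller fold of the 2 libraries, the widest step lay between Mir323 and Mir758. Mir323, at 806 and 830 CPM, was 230-fold and 330.5-fold above Mir758, which starts 216 bp further on. With 11 counts of Mir758 in each library, these 2 folds are rough. Mir487b was 250-fold and 89.8-fold above Mir539, 714 bp away, and Mir541 was 73.4-fold and 58.1-fold above Mir377, 1831 bp away. Wide steps thus lay over short and long gaps. At the downstream end, Mir409, Mir412, Mir369 and Mir410 follow each other with gaps of 52, 49 and 218 bp. Mir412 was at 43.4 and 48.9 CPM, between Mir409 and Mir369, and it was 17.4-fold and 19.2-fold lower than Mir409. Mir369 was 43.3-fold and 41.7-fold above Mir412, and Mir410 was at 88.6 and 66.7 CPM. High, low, high and low levels thus alternated over these 4 hairpins in both libraries. Mir382 was 14.5-fold and 10.9-fold above Mir134, 292 bp away in the same host gene.

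Members inside and outside the annotated Mirg gene overlapped in level. Outside it, 21 of 25 were detected, with a median of 188 CPM among those detected and 2.06% ± 0.135 of all counts. Inside it, 13 of 14 were detected, with a median of 820 CPM and 1.75% ± 0.0261 of all counts. Of the 3 highest members, Mir487b and Mir411 lay outside and Mir382 inside. Exonic members were at a median of 447 CPM (9 of 9 detected) and intronic ones at 980 CPM (4 of 5 detected). No test was run on these sets, whose hairpins share the libraries and in part their transcripts.

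The miRNA genes upstream in the same imprinted region were the most like parts of the data. Of 6 that lie antisense to Rtl1, a retrotransposon-derived gene read from the paternal chromosome, 5 were detected, with a median of 1349 CPM. They held 3.70% ± 0.0877 of the assigned counts, against 3.81% ± 0.109 for the 39 cluster members. Mir127 alone, at 24590 ± 432 CPM, was above every member of the cluster. In the Meg3 and Rian region 11 of 14 were detected, with a median of 760 CPM and a share of 1.19% ± 0.0913. The median of the 34 detected cluster members was 243 CPM, and that of all 384 detected miRNA genes was 116 CPM. The 3 parts overlapped in their range, and no test was made between them.

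**Figure D2:**
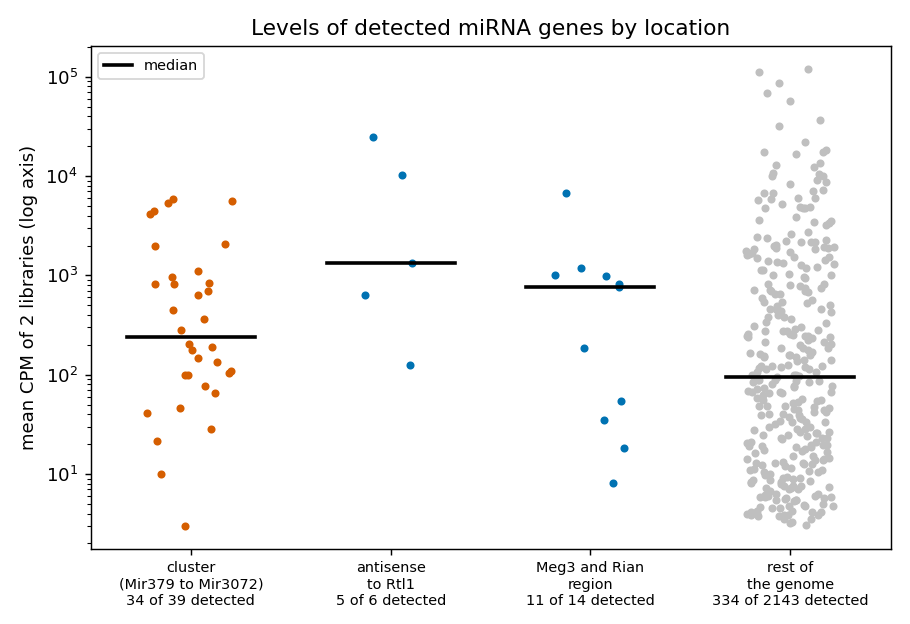
Mean CPM of the 2 libraries on a log axis for each detected miRNA gene, by location, with bars at the medians. The cluster's detected genes spread from 3.01 to 5887 CPM around a median of 243, and the genes antisense to Rtl1 reached 24590 CPM.

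The 2 libraries gave nearly the same profile of the cluster. Across the 34 detected members the log2 levels of the libraries had a Pearson correlation of 0.98 (Spearman 0.96), and across all 384 detected genes also 0.98 (Spearman 0.97). The biological coefficient of variation, the relative spread between replicates beyond counting error as estimated by edgeR, was 0.265 over the detected members and 0.344 over all detected genes. After TMM scaling, which makes the bulk of the genes alike in both libraries, the median log2 ratio of replicate 1 over replicate 2 was -0.08 over the detected members and 0.04 over all detected genes. It was below 0 in 21 of 34 members, against 46.9% of all detected genes. These ratios compare 2 libraries of 1 group and say nothing of a condition.

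Several marker genes, neuronal ones among them, stood further apart between the libraries than most members did. Mir34c, of choroid plexus and ependyma, was at 1747 and 292 CPM, while Mir204 of the same list was at 1148 and 744 CPM. The epithelial Mir183 was at 270 and 45.5 CPM and Mir200c at 185 and 29.7 CPM, both higher in replicate 1. The hindbrain genes Mir10a, at 107 and 399 CPM, and Mir10b, at 31.3 and 103 CPM, were higher in replicate 2, with Mir196a-1 and Mir196b at 2.55 CPM or less in each library. Endothelial Mir126a was at 12521 and 22475 CPM. Neuronal Mir132 was at 21687 and 13106 CPM and neuronal Mir128-1 at 4545 and 9069 CPM, in opposite directions. Neuronal Mir138-1 (2096 and 2244 CPM), oligodendrocyte Mir219a-2 (3298 and 3783 CPM) and Mir142 of microglia and myeloid cells (245 and 237 CPM) lay closer. The part of the markers' differences in the members' ratios was not tested.

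**Figure D3:**
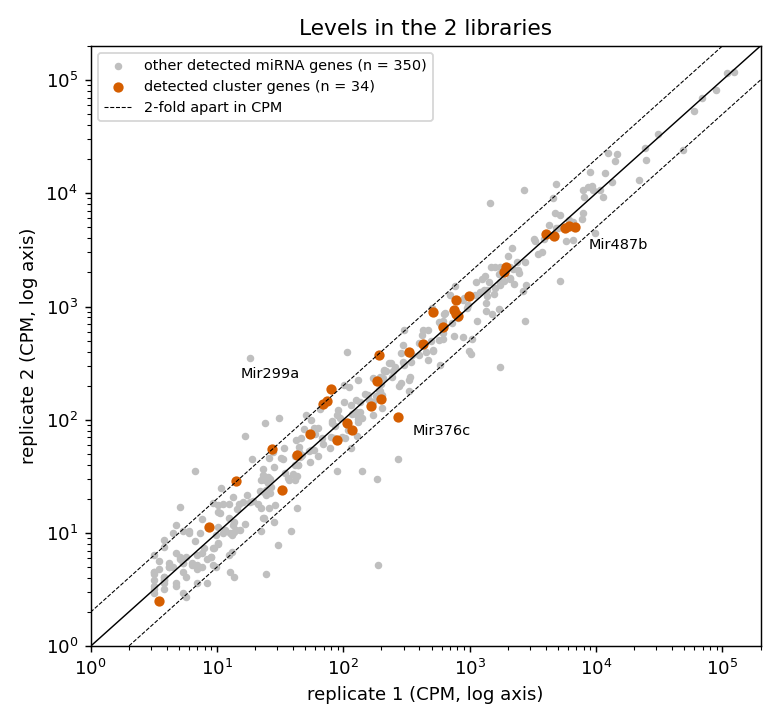
CPM in replicate 1 (horizontal axis) and replicate 2 (vertical axis), both on log axes, for the 34 detected cluster genes and the 350 other detected miRNA genes. The solid line marks equal CPM and the dashed lines 2-fold. Most of the cluster's genes followed the solid line. In these CPM, without TMM scaling, 4 lay beyond the dashed lines. They were Mir376c, higher in replicate 1, and Mir299a, Mir539 and Mir1193, higher in replicate 2.

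Past 2-fold between the libraries lay 2 of the 34 detected members, where 12.5% of all detected genes did. Mir376c was 2.68-fold higher in replicate 1 (log2 ratio 1.42, exact 95% interval 1.26 to 1.59), where 8.07% of all detected genes were past 2-fold. Mir299a was 2.24-fold higher in replicate 2 (log2 ratio -1.16, -1.38 to -0.96), where 4.43% were. Scaled by assigned counts alone 4 members were past 2-fold, and in the unstranded counts 1 was. Mir299a had 0 unstranded counts in both libraries and so had no ratio there. The next widest ratios among members with at least 100 counts over both libraries were 0.60 for Mir496a and 0.52 for Mir679, and on the other side -0.97 for both Mir539 and Mir1193.

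Tested against counting error alone (exact binomial test, two-sided, Benjamini-Hochberg adjustment over 459 genes with at least 10 counts in either library), 29 of 36 members differed between the libraries, against 56.9% of all genes tested. Of these, 11 were higher in replicate 1 (29.0% of all genes tested were) and 18 in replicate 2 (27.9%). Mir544 (7 and 38 counts) and Mir1197 (0 and 10) are among the 18. They entered the test through replicate 2 alone, so their direction follows from the count minimum. Mir376c had an adjusted p of 5.52e-68 and Mir299a of 1.12e-31 in that exact test. The spread between replicates is not part of this test, which compares 2 libraries and no conditions. The test also calls more genes where counts are higher. Detected members were at a median of 243 CPM and all detected genes at 116 CPM. The shares called were not compared at equal counts. The 4 leading members were all higher in replicate 1, with log2 ratios of 0.50 for Mir487b, 0.34 for Mir382, 0.29 for Mir411 and 0.21 for Mir379. The next 6, from Mir541 to Mir409, were all lower, between -0.48 for Mir376a and -0.05 for Mir369. By the reads counted, the Mir376 copies moved apart: Mir376c was at 1.42, Mir376b at -0.91 and Mir376a at -0.48. Mir134, Mir323, Mir667, Mir369, Mir412, Mir494 and Mir758 did not pass this test.

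**Figure D4:**
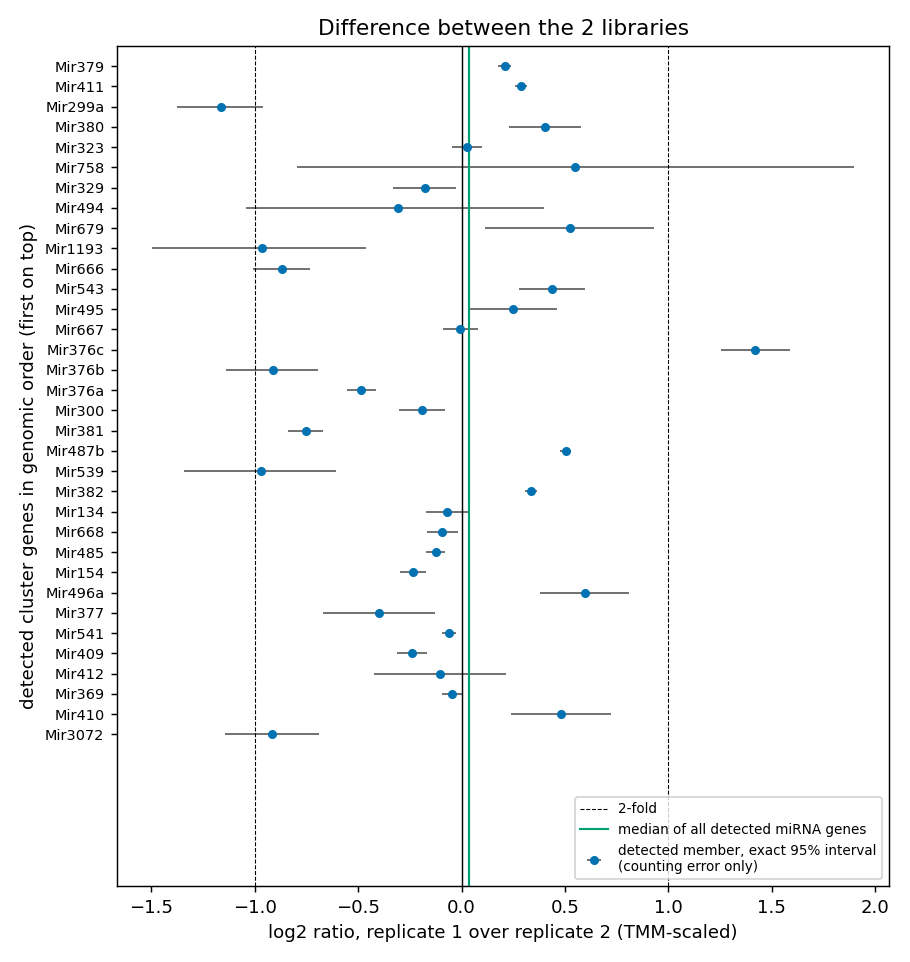
Log2 ratio of replicate 1 over replicate 2 after TMM scaling for the 34 detected members in genomic order, with exact 95% intervals that cover counting error only. Dashed lines mark 2-fold and the green line the median of all detected miRNA genes. Mir376c and Mir299a lay beyond the dashed lines.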

How the data were processed

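For each library the authors deposited raw counts for every miRNA gene, unstranded and for each strand, below 4 summary lines. Build mm10 and annotation M21 are named in the deposited notes, with aligner, counter and trimming not given in the sources used here. Sense counts were used (93.4% and 91.9% of what the 2 strand columns held). CPM was computed over the assigned sense counts. Library ratios used TMM factors (0.976 and 1.02) from edgeR 4.0.16 in R 4.3.3, over genes with at least 10 counts in either library. Python 3.11.15, scipy 1.17.1, pandas 2.3.3 and matplotlib 3.10.9 did the rest, and DESeq2 1.42.0 size factors were an alternative. Genes with full values are the 10 leading members, 2 literature lists, the 3 widest ratios in each direction, and those at 0. The window and the lists were chosen with earlier results of these data known, and members were then taken by position within the window. The binomial test and the dispersion estimate were tested on simulated data.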

Additional observations from a re-analysis of the deposited data

How the results depend on the processing

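No contrast between conditions exists, and no paired analysis was possible because there is 1 group. As a share of all reads of the library, the cluster held 1.25%. The median log2 ratio between libraries stayed below 0 in all 5 alternatives tried: -0.10 with DESeq2 size factors, -0.15 scaled by assigned counts (all detected genes: -0.03), -0.093 with a count minimum of 5 and of 20, and -0.08 in the unstranded counts. Members past 2-fold numbered 4 scaled by assigned counts and 1 in the unstranded counts, against 2. Mir299a, without unstranded counts, had no ratio in the latter. Leaving out a replicate gave shares from 3.73% to 3.88% and 34 to 36 detected members, but with n = 2 each library lies within 1 SD of the mean by construction. The level of 13 of 34 detected members moved by more than its SD in the unstranded counts. Of these, 5 fell to 0, and the others had the same counts over a smaller assigned total. Depth limits Mir758, Mir1197, Mir544 and Mir494, each under 50 counts per library.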

Other observations

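Of the 39 members, 5 overlap an annotated miRNA gene on the minus strand: Mir299a (Mir299b), Mir380 (Gm25750), Mir376a (Gm25252), Mir539 (Gm44322) and Mir409 (Gm24321). In the unstranded column these 5 members had 0 counts in both libraries, while by strand they held 5.63% of the cluster's counts, with 2457 and 5037 counts for Mir376a and 2367 and 4099 for Mir409. Their 5 partners had 0 counts on their own strand in both libraries, which allows up to 0.957 and 0.685 CPM. No member had a count on the strand opposite to its own, and for the other 34 members the unstranded and sense counts were equal.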
